A study of Mus musculus with 6 samples.

Results

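The RNA-binding protein gene Hnrnpl and 9 other protein-coding genes of mouse chromosome 7 that lie near Dll3 were followed in embryos with and without a disrupted Dll3. The genes were Ltbp4, Sptbn4, Blvrb, Sertad3, Sertad1, Pld3, Akt2, Zfp60, Hnrnpl and Ppp1r14a. They were taken by name, as every probe set annotated to exactly 1 of these symbols, which gave 12 of the 22626 probe sets tested and 10 of the 12393 genes. The names had been chosen with the differences between mutant and wild-type pools in view, so those differences are described here and no test is given for them. The 10 genes stand among 58 measured genes within 50 protein-coding genes of Dll3 on either side, not counting Dll3.

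RNA came from 3 pools of Dll3 mutant embryos, homozygous for the allele named tm1Rbe or neo in the labels, and from 3 pools of wild-type embryos. All embryos were collected at 9.5 days post coitum, and the labels give the strain as c57bl/6 for both genotypes. The tissue was the trunk between the otic placode and the last somite formed, without heart or endoderm, and it therefore holds neural tube, vessels and blood beside the somites. Each pool went on 1 Affymetrix MOE430A array, and precision is limited by having 3 arrays per genotype. The sources used here give neither the number of embryos in a pool nor their sex, nor the strain of the DNA flanking the allele.

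Each probe set was deposited as linear ratios relative to its own reference, with a median of 1 over the 6 pools for each probe set of the 10 genes. The ratio can be compared between pools and not between genes, and it does not show whether a transcript was abundant or near background. Dll3 encodes a divergent Notch ligand of the presomitic mesoderm, needed for regular somite boundaries. A gene close to a targeted locus is inherited together with it, because recombination seldom parts close neighbours, so the neighbours of a targeted gene are commonly looked at on their own.

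Along the gene order of assembly GRCm38.p6 the 10 genes form a run on one side of Dll3 and a pair of single genes on the other. Ltbp4 lies 30 coding genes before Dll3, Sptbn4 28, Blvrb 27, Sertad3 26, Sertad1 25, Pld3 22, Akt2 19 and Zfp60 15. These 8 are all but 2 of the genes measured between Ltbp4 and Zfp60, the other two being Shkbp1 and 2310022A10Rik. Hnrnpl lies 25 coding genes after Dll3 and Ppp1r14a 44.

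The 250 bases before the first listed annotated start are printed for Hnrnpl, Ppp1r14a and Blvrb, because these are the 3 genes whose mutant and wild-type pools did not overlap. Blvrb has 2 listed windows, and what is said of it holds for the first only. The sequences are from RefSeq, build GRCm38.p6, plus strand, at chr7:28810640-28810889 for Hnrnpl, chr7:29289070-29289319 for Ppp1r14a and chr7:27447728-27447977 for Blvrb. Capitals mark matches, on either strand, to the motifs CCAAT and GGGCGG, the letters of the CCAAT box and the GC box. TATAAA and TGGGAA, the core letters bound by the Notch effector RBPJ, were also searched and have no match in these 3 windows.
Hnrnpl: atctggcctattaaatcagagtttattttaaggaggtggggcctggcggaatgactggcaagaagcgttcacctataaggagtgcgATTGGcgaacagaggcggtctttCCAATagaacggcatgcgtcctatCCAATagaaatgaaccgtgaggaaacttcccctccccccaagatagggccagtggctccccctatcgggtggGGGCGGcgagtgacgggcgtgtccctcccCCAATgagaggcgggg
Ppp1r14a: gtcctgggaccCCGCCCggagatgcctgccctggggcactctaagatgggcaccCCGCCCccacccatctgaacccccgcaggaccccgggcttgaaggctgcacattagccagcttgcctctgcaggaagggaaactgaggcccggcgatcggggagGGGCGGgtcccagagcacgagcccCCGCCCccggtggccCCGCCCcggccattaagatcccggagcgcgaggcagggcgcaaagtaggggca
Blvrb: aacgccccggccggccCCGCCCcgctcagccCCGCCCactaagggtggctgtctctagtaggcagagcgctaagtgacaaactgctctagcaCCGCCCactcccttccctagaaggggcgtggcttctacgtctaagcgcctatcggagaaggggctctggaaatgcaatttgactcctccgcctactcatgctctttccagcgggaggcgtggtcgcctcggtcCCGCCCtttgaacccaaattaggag
The Hnrnpl window holds 4 CCAAT matches and 1 GGGCGG match. The nearest CCAAT match begins 16 bases before the start, and the other CCAAT matches begin 117, 141 and 164 bases before it. The windows of Ppp1r14a and Blvrb hold no CCAAT, and have 5 and 4 GGGCGG matches. No match of one motif overlapped a match of the other.

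Among the 10 genes, all of which have a window in the RefSeq table, GGGCGG occurred in the first listed window of 9, CCAAT in 3 (Hnrnpl, Ltbp4 and Sertad3), TGGGAA in 1 (Zfp60) and TATAAA in 0. Over 9885 genes measured on the array with a window, the shares were 53.2% for GGGCGG, 35.8% for CCAAT, 20.9% for TGGGAA and 9.15% for TATAAA. The median count of CG dinucleotides was 16.5 in the windows of the 10 genes and 14 in those of the measured genes, and the highest was 33, in Sptbn4. GC content ran from 48.8% in Akt2 to 72% in Sptbn4. A match to these letters describes the window only.

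Hnrnpl encodes an RNA-binding protein that regulates alternative splicing through CA-rich sequences. Its single probe set had ratios of 1.120, 1.375 and 1.504 in the mutant pools, against 0.880, 0.705 and 0.609 in the wild-type pools. All 3 mutant pools were above all 3 wild-type pools, and the nearest pools of the groups were mutant replicate 1 and wild-type replicate 1. The mean ratio was 1.33 ± 0.195 in mutant and 0.731 ± 0.137 in wild-type pools (SD, n = 3 each). The log2 difference was 0.87 (SE 0.142), or a 1.83-fold ratio of geometric means. In absolute size it ranked 3 of 12393 genes, and this rank describes a gene that was picked for its difference. In bulk tissue a change in the share of cells that make a transcript and a change in RNA per cell cannot be told apart.

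The pools of one genotype differed from each other more for Hnrnpl than for most genes. The spread within genotypes was 0.244 on the log2 scale and stood at percentile 97.5 of all genes. Ppp1r14a was alike, with a spread of 0.248 at percentile 97.8. The other 8 genes stood between percentiles 30.2 (Ltbp4) and 88.4 (Sertad1). A choice by size of difference favours genes of large spread, so these percentiles are not independent of the choice.

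Ppp1r14a encodes an inhibitor of myosin light chain phosphatase that promotes contraction of smooth muscle. Its ratios were 0.658, 0.981 and 0.895 in the mutant pools, against 1.019, 1.192 and 1.301 in the wild-type pools. All mutant pools were below all wild-type pools, with a narrow gap between mutant replicate 2 and wild-type replicate 1. The means were 0.845 ± 0.167 in mutant and 1.17 ± 0.142 in wild-type pools (SD, n = 3 each), and the log2 difference was -0.48 (SE 0.144). Mutant replicate 1 was the lowest pool, and without it the difference was -0.31.

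Blvrb encodes a biliverdin and flavin reductase that is abundant in red blood cells. Its ratios were 1.065, 1.192 and 1.021 in the mutant pools, against 0.880, 0.979 and 0.937 in the wild-type pools. Again the groups did not overlap, and mutant replicate 2 was highest. The means were 1.09 ± 0.0888 in mutant and 0.932 ± 0.0497 in wild-type pools (SD, n = 3 each), with a log2 difference of 0.23 (SE 0.0846).

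**Figure D1:**
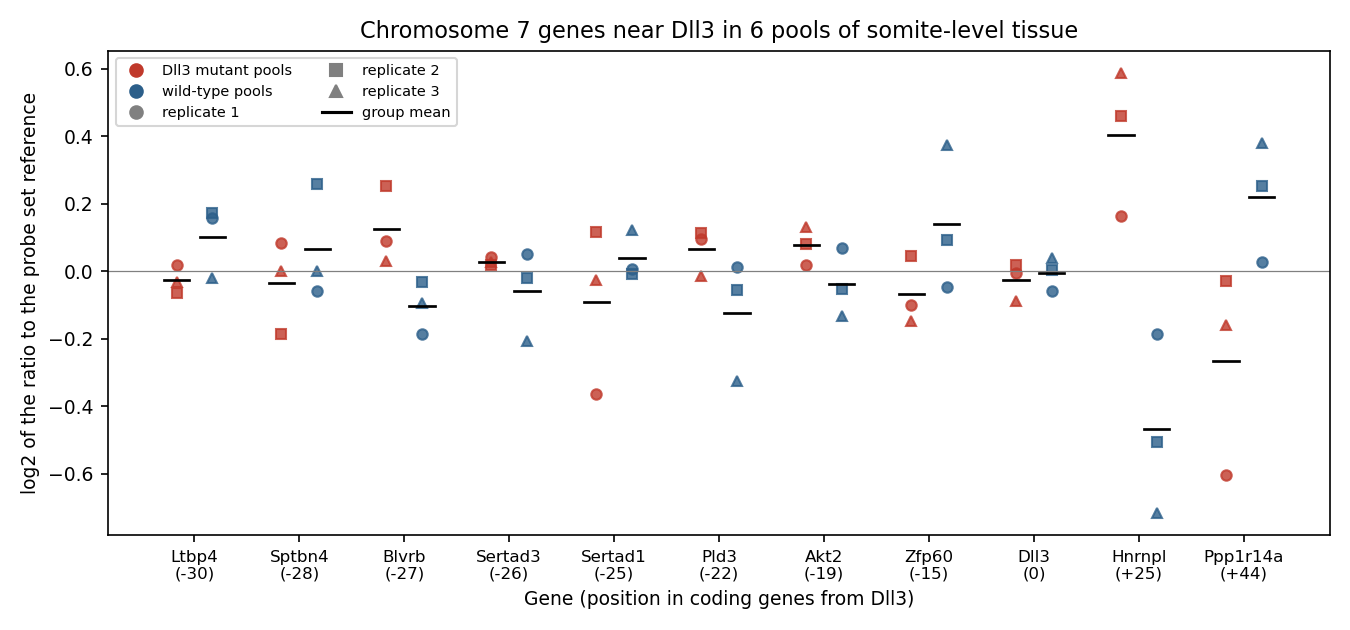
Log2 of the deposited ratio (y axis) of the 10 genes and Dll3 in each pool, in chromosome order with the number of coding genes from Dll3 in brackets (x axis). Red symbols are Dll3 mutant pools, blue symbols wild-type pools, symbol shapes the replicate numbers and black lines the group means. Hnrnpl and Blvrb have all mutant pools above, and Ppp1r14a all mutant pools below, the wild-type pools.

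In the other 7 genes the groups overlapped. Pld3, a lysosomal nuclease of the phospholipase D family, had ratios of 1.070, 1.083 and 0.990 in mutant pools, against 1.010, 0.963 and 0.798 in wild-type pools. Its log2 difference was 0.19 (SE 0.0974), and wild-type replicate 3 was the lowest pool, without which the difference was 0.09. Zfp60, which encodes a KRAB zinc finger protein, had 0.934, 1.032 and 0.903 in mutant pools, against 0.968, 1.067 and 1.297 in wild-type pools, and a log2 difference of -0.21 (SE 0.109). Wild-type replicate 3 was the highest pool for Zfp60, and without it the difference was -0.09.

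Akt2, the Akt kinase best known for its part in insulin signalling, was measured by a pair of probe sets. One had 0.980, 1.137 and 1.183 in mutant pools, against 1.020, 0.963 and 0.932 in wild-type pools, a log2 difference of 0.18 (SE 0.0967). The other, whose name ends in _s_at and which may bind related transcripts, had 1.047, 0.987 and 1.013 in mutant pools, against 1.080, 0.967 and 0.895 in wild-type pools, a difference of 0.05 (SE 0.0938). Both were positive, the second near 0, and their mean was 0.11 (SE 0.0799).

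Sertad1 and Sertad3 lie next to each other and encode transcriptional co-regulators with a SERTA domain that act with E2F factors. Sertad1 had 0.778, 1.085 and 0.982 in mutant pools, against 1.006, 0.994 and 1.089 in wild-type pools, a log2 difference of -0.13 (SE 0.115). This value rests on mutant replicate 1, without which it was 0.0048. The probe sets of Sertad3 gave 0.07 (SE 0.0870) and 0.11 (SE 0.107). Their mean ratio per pool was 1.030, 1.013 and 1.019 in mutant pools, against 1.037, 0.987 and 0.867 in wild-type pools, so the mutant pools lay inside the wild-type range. Without wild-type replicate 3 their mean difference fell to 0.01, against 0.09 with all pools. The neighbouring pair thus had opposite signs, each little more than 1 SE from 0.

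Ltbp4 encodes a matrix protein that binds latent TGF-beta and takes part in elastic fibre assembly. It had 1.013, 0.957 and 0.979 in mutant pools, against 1.115, 1.127 and 0.987 in wild-type pools, a log2 difference of -0.13 (SE 0.0796). Sptbn4 encodes a beta spectrin of the axon initial segment. It had 1.060, 0.880 and 1.0 in mutant pools, against 0.961, 1.198 and 1.0 in wild-type pools, a difference of -0.10 (SE 0.104), which was -0.03 with mutant replicate 2 left out and -0.0048 when wild-type replicate 2 was left out. Sptbn4 and Blvrb are adjacent coding genes on opposite strands, and their differences had opposite signs.

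Over the 10 genes 5 differences were positive and 5 negative, with a median of -0.0072, against a median of 0.00348 over all 12393 genes. The median absolute difference was 0.160 in the 10 genes and 0.130 in the 8 genes of the run, against 0.0542 over all genes. The groups did not overlap in 3 of the 10, where 7.46% of all genes showed no overlap. These values come from the contrast in which the genes were chosen. Dll3 itself, by 1 probe set, had ratios of 0.996, 1.013 and 0.941 in mutant pools, against 0.960, 1.004 and 1.028 in wild-type pools. Its difference was -0.02 (SE 0.0733), and since the sources used here do not place the probe set relative to the allele, it does not check the labels. The tissue also ended at the last somite formed, and the ratio does not show whether Dll3 was above background in it.

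Whether the neighbours of the targeted locus as a group differ between genotypes was described by position. Of all 58 measured genes within 50 coding genes, Dll3 left out, the groups did not overlap in 17.2%, against 7.46% of all genes. These include Hnrnpl, Ppp1r14a and Blvrb, picked with their differences in view, so the share is raised by that choice. Since the 10 were taken out of this window with their differences known, counts over the rest are lowered by that choice and give no evidence that neighbours did not differ. With Dll3 and the 10 genes left out, 48 of 90 coding genes within 50 on either side were measured, of which 24 had a positive and 24 a negative difference. By limma, the adjusted p was under 0.05 for 0 of the 48 and the unadjusted p for 0 of the 48, against 0% and 2.67% of all genes. Their median difference was 0.00171 and their median absolute difference 0.0625. The groups did not overlap in 7 of the 48, a share of 14.6%, 3 with the mutant pools higher (Rab4b, Fbl and Sirt2), against 3.98% of all genes, and 4 with them lower (Cyp2a12, Zfp59, Fbxo17 and Ech1), against 3.49%. The share of 14.6% was above the 7.46% of all genes, a difference that was not tested. The count of 0 at unadjusted p under 0.05 was not stable: it was 3 of 48 (6.25%, against 2.31% of all genes in the same fit) without mutant replicate 3, and 6 of 48 (12.5%, against 9.68%) with array weights.

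The 8 named neighbours were the 4 per direction with the smallest p. Rab4b, which encodes a small GTPase of recycling endosomes, had 1.053, 1.207 and 1.010 in mutant pools, against 0.990, 0.911 and 0.981 in wild-type pools (log2 difference 0.18, SE 0.0870, limma adjusted p = 0.9997). Sirt2, a NAD-dependent deacetylase gene that lies 2 coding genes from Hnrnpl, had 1.009, 1.148 and 1.040 in mutant pools, against 0.991, 0.988 and 0.916 in wild-type pools, a difference of 0.14 (SE 0.0801). The other two were Cyp2g1, an olfactory cytochrome gene, at 0.20 (SE 0.115) and the protease inhibitor gene Spint2 at 0.12 (SE 0.0843). On the lower side 2310022A10Rik was at -0.19 (SE 0.0876), Fbxo17, an F-box gene, at -0.16 (SE 0.0753), Zfp59 at -0.18 (SE 0.0893) and Cyp2a12 at -0.20 (SE 0.0993). The smallest unadjusted limma p among the 48 was 0.0571, for 2310022A10Rik.

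Other neighbours reached the size of difference of most listed genes. The largest absolute difference among the 48 was -0.23 (SE 0.141), in the lung and liver cytochrome gene Cyp2f2, whose pools overlapped. It was close in size to that of Blvrb and larger than that of Zfp60 and of 6 of the other listed genes. Hnrnpl and Ppp1r14a, picked with their differences in view, had larger differences than any of the 48.

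**Figure D2:**
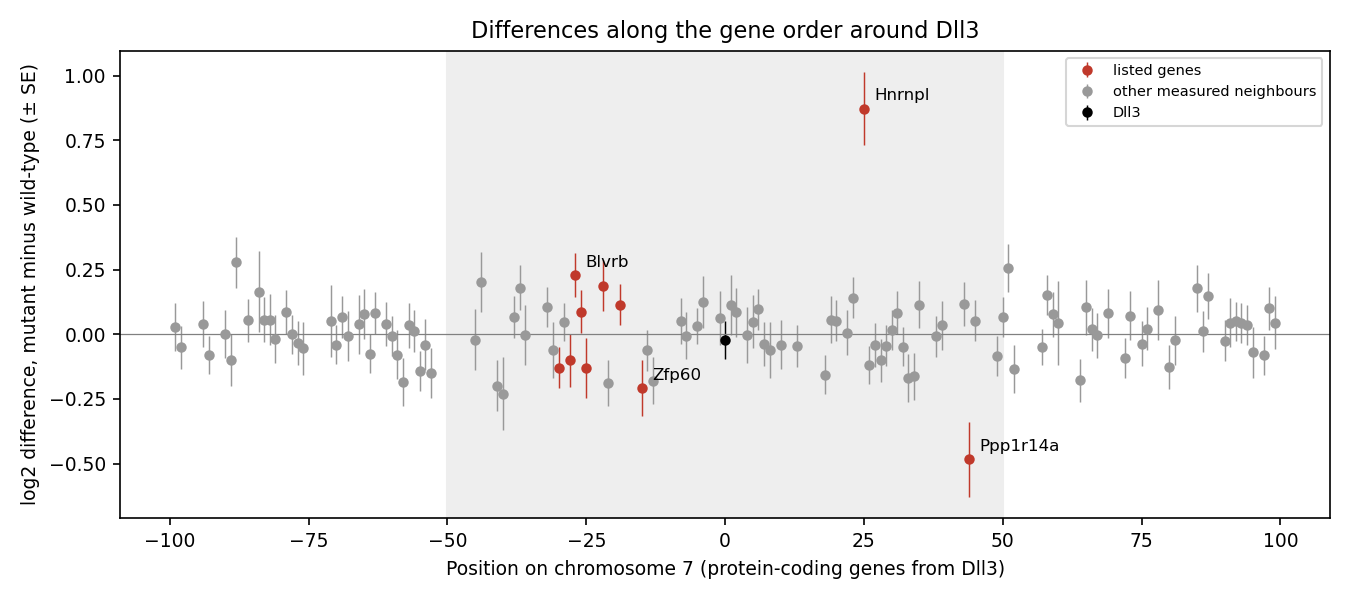
Log2 difference, mutant minus wild-type, with its SE (y axis) for each measured gene against its position in coding genes from Dll3 (x axis), with the span of 50 genes per side shaded. Red points are the 10 listed genes, grey points the other neighbours and the black point Dll3. Hnrnpl at 0.87 and Ppp1r14a at -0.48, picked with their differences in view, stand apart. The grey points in the shaded span lie between -0.23 and 0.20.

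The measured genes beside Hnrnpl and Ppp1r14a, 2 on each side, had smaller differences, of both signs. Next to Hnrnpl, Nfkbib was at 0.01 (SE 0.0871), Sirt2 at 0.14, the peroxisomal and mitochondrial enzyme gene Ech1 at -0.12 (SE 0.0719) and the galectin gene Lgals4 at -0.04 (SE 0.0859). Ech1, the next coding gene after Hnrnpl, had 0.9, 0.982 and 0.942 in mutant pools, against 1.018, 1.021 and 1.025 in wild-type pools, a negative difference that did not pass the test (limma adjusted p = 0.9997), in groups that did not overlap, as in 7.46% of all genes. Beside Ppp1r14a, Catsperg1 was at 0.03 (SE 0.0941), Spint2 at 0.12, Dpf1, a neural chromatin remodelling gene, at 0.05 (SE 0.0783) and Zfp84 at -0.08 (SE 0.0768). These neighbours were picked by position, but Hnrnpl and Ppp1r14a were picked with their differences in view. Smaller differences beside them are therefore likely from that choice alone and give no result about the neighbours.

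Sex-linked transcripts differed between the pools. Xist, the RNA that coats the inactive X chromosome of females, had mean log2 ratios of 0.12, 0.77 and 0.49 in mutant pools, against -0.04, -1.23 and -1.26 in wild-type pools. The Y-linked genes Eif2s3y, Kdm5d and Uty averaged 0.08, -0.04 and -0.23 in mutant pools, against 0.05, 0.25 and 0.47 in wild-type pools. In both Hnrnpl and Xist the wild-type pool nearest to the mutant pools was replicate 1 and the mutant pool nearest to the wild-type pools was replicate 1. For Xist this holds for the mean of its 3 probe sets. In 1 of them the lowest mutant pool was replicate 3, at a ratio of 0.994, against 1.236 in replicate 1, and the genotypes overlapped. The probe sets of Kdm5d also differed from each other, with log2 differences of -0.40, -0.08 and -0.07. With the Xist level minus the Y-linked level as a covariate, the log2 difference of Hnrnpl was 0.34 (SE 0.159) and that of Ppp1r14a -0.44 (SE 0.267). In that fit 5 of the 10 genes changed sign, each to a value smaller than its SE. They were Pld3 at -0.0013 (SE 0.168), Akt2 at -0.07 (SE 0.1355), Sertad3 at -0.07 (SE 0.148), Sptbn4 at 0.11 (SE 0.177) and Zfp60 at 0.04 (SE 0.181). The covariate was 0.04, 0.81 and 0.73 in mutant pools, against -0.08, -1.48 and -1.73 in wild-type pools. It did not overlap between genotypes, so the fit parts it from genotype poorly. The part of the sex mix in these values was not tested further.

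Markers of other cells also varied. All 7 measured primitive erythroid markers had positive differences, from 0.13 for Hbb-y to 0.34 for Hemgn, and 5 had an unadjusted limma p under 0.05, against 2.67% of all genes. None had an adjusted p under 0.05, as was so for all 12393 genes. Their mean log2 ratio was 0.09, 0.32 and 0.04 in mutant pools, against -0.02, -0.10 and -0.17 in wild-type pools, with mutant replicate 2 highest and mutant replicate 3 lowest of the mutant pools, an order also seen in Blvrb. Among the wild-type pools the orders differed: replicate 1 was highest for the erythroid markers and lowest for Blvrb. Smooth muscle markers were higher for 4 of 6, with a mean log2 ratio of 0.02, 0.20 and 0.05 in mutant pools, against 0.02, -0.06 and -0.13 in wild-type pools, opposite in direction to Ppp1r14a. Somite markers averaged -0.25, -0.18 and 0.05 in mutant pools, against -0.00210, 0.11 and 0.16 in wild-type pools. In that list Uncx, at -0.998, was far from the rest. Ratios do not show whether a marker was present at all, and the part of cell content in the differences of Blvrb and Ppp1r14a was not tested.

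**Figure D3:**
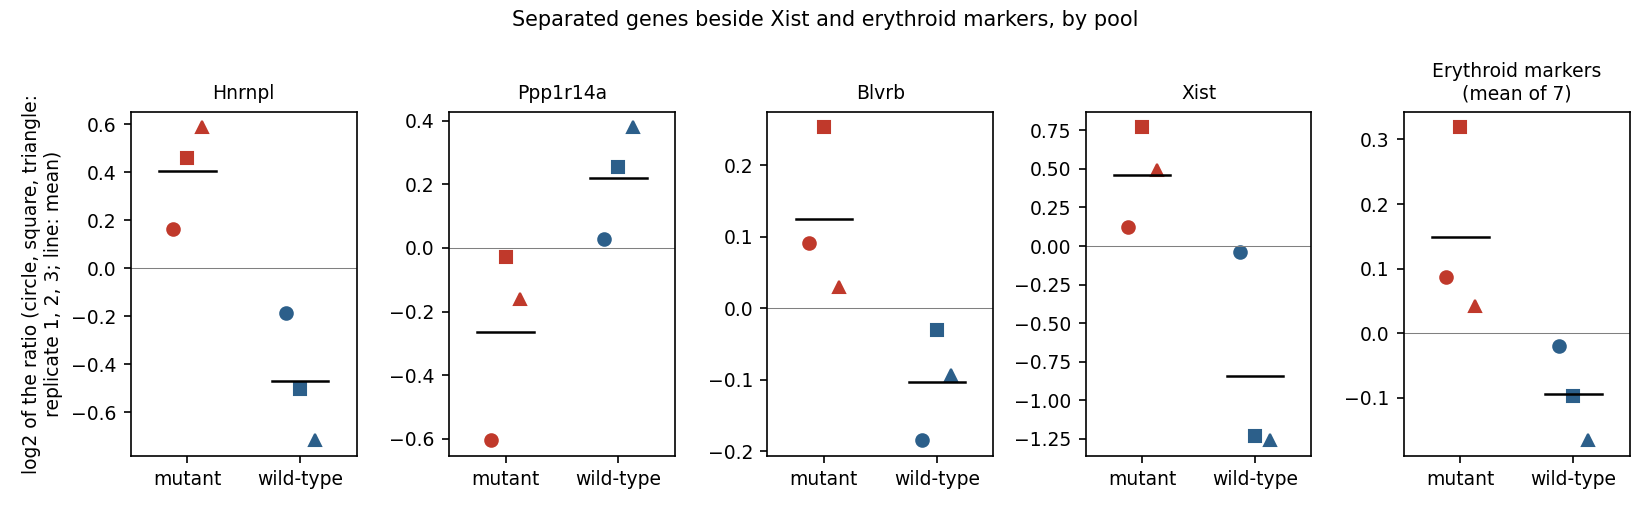
Log2 ratio (y axes, a separate scale per panel) in mutant pools (red, left) and wild-type pools (blue, right) for the 3 genes whose groups did not overlap, for Xist and for the mean of 7 erythroid markers. Symbols mark replicates 1 to 3 and lines the means. Xist ran at 0.12 to 0.77 in mutant and at -1.26 to -0.04 in wild-type pools.

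Each of the 10 genes was set beside a list of genes of its own family or pathway. In none of the 9 lists did a gene pass the adjusted threshold, which 0 of all 12393 genes passed. In the list of hnRNP genes and splicing partners, 8 of 20 measured genes had positive and 12 negative differences (median -0.02). One of the 20 (5%, against 2.67% of all genes) had an unadjusted p under 0.05, Hnrnpd, at 0.17 (SE 0.0724, limma adjusted p = 0.9997). Hnrnpul1 was at -0.18 (SE 0.0922) and Hnrnpll, the close paralogue of Hnrnpl, at -0.06 (SE 0.0891). The differences of the list ended at 0.17, well under the 0.87 of Hnrnpl, a gene picked with its difference in view.

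The list around Ppp1r14a, with myosin phosphatase, its inhibitors and smooth muscle genes, was higher for 9 of 15 and lower for 6 (median 0.06). The actin-binding genes Tagln, at 0.40 (SE 0.137), and Cnn1, at 0.30 (SE 0.110), were the 2 of 15 with an unadjusted p under 0.05 (13.3%, against 2.67% of all genes) and are also smooth muscle markers. Tagln had ratios of 0.974, 1.402 and 1.202 in mutant pools, against 1.026, 0.883 and 0.784 in wild-type pools, which overlap. The paralogue Ppp1r14b was at -0.0091 (SE 0.0911).

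Of the haem genes beside Blvrb all 11 measured had positive differences, from 0.0035 to 0.29, with a median of 0.12. Blvra, the other biliverdin reductase gene, was the 1 of 11 with an unadjusted p under 0.05 (9.09%, against 2.67% of all genes), at a difference of 0.22 (SE 0.0810, limma adjusted p = 0.9997). Its ratios were 1.047, 1.026 and 1.048 in mutant pools, against 0.974, 0.826 and 0.878 in wild-type pools, without overlap. Alas2, the erythroid enzyme that starts haem synthesis and also an erythroid marker above, was at 0.29 (SE 0.140). The erythroid markers above were positive too, and their part in the haem list was not tested.

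The remaining 6 lists had medians between -0.01 and 0.03. Insulin, PI3K and Akt genes were higher for 13 of 20, with Rictor at -0.16 (SE 0.0958) and Akt1 at 0.15 (SE 0.0968). Latent TGF-beta and elastic fibre genes were lower for 11 of 16, with Tgfb3 at -0.23 (SE 0.0998), Ltbp1 at -0.19 (SE 0.123), Ltbp2 at 0.05 and Ltbp3 at 0.10. Among SERTA, E2F and cyclin D genes 11 of 17 were lower, with E2f6 at 0.12 (SE 0.0738), Cdk6 at -0.19 (SE 0.183) and Sertad2 at -0.0093. Spectrin and ankyrin genes were higher for 9 of 11, with Sptan1 at 0.19 (SE 0.115) and Add1 at 0.13 (SE 0.0760). Phospholipase D and lysosome genes split 4 to 4, with Lamp2 at 0.14 (SE 0.112) and Ctsb at 0.05. KRAB zinc finger genes and corepressors were higher for 8 of 17, with Zfp790 at 0.26 (SE 0.0935) and Zfp59 at -0.18. Unadjusted p-values under 0.05 occurred for 1 gene each in the TGF-beta list (Tgfb3) and the KRAB list (Zfp790), or 6.25% and 5.88%, and for 0 genes in the other 4, against 2.67% of all genes.

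**Figure D4:**
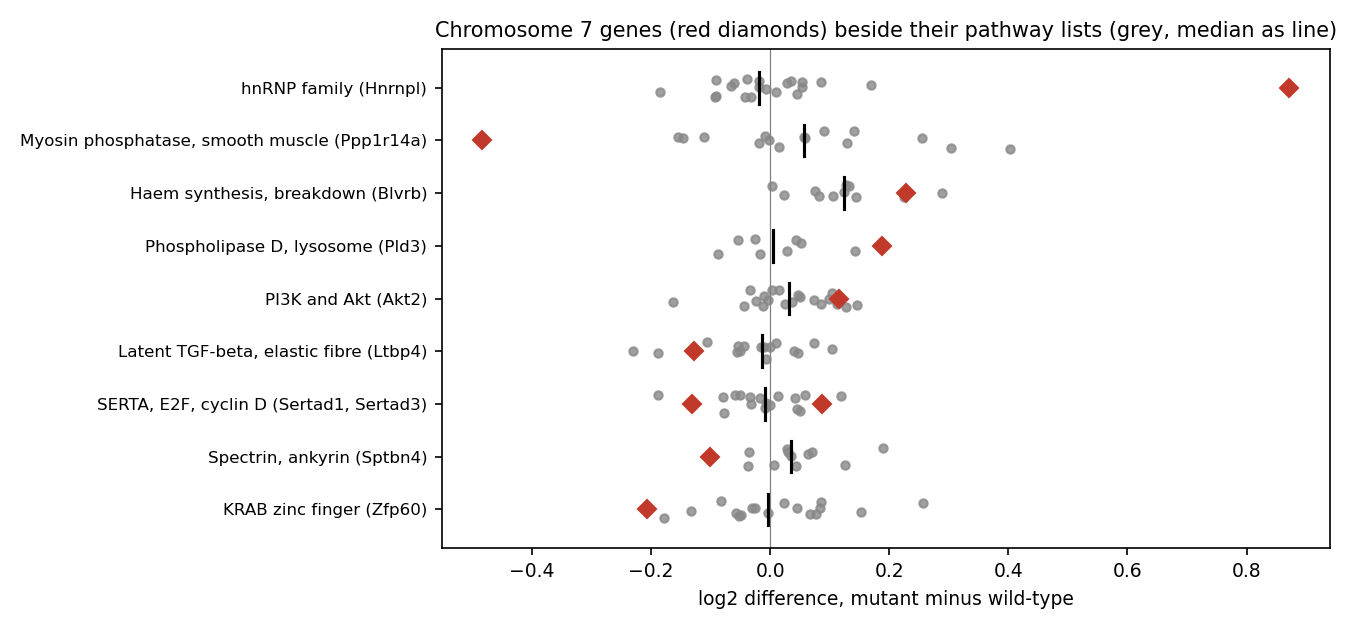
Log2 difference, mutant minus wild-type (x axis), of the genes of 9 family and pathway lists (grey points, black line at the median), with the listed chromosome 7 genes as red diamonds in their own row. Hnrnpl, Ppp1r14a, Pld3, Sptbn4 and Zfp60 lie outside the range of their lists, and Blvrb lies inside a row whose 11 points are all positive. The red genes were picked with their differences in view and the grey ones by family or pathway, so a place outside the range is no result.

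Across the 6 pools the genes most like Hnrnpl lay on other chromosomes. By Pearson's r of log2 values over 6 pools, a description in which the difference between genotypes enters, the 5 highest were Usp20 (0.997), D6Wsu163e (0.991), Abhd12 (0.986), Flywch1 (0.979) and Kif21a (0.976). Usp20 encodes a ubiquitin protease and had ratios of 1.016, 1.053 and 1.068 in mutant pools, against 0.972, 0.952 and 0.926 in wild-type pools. Its log2 difference was 0.14 (SE 0.0706), far smaller in size than that of Hnrnpl. Over all 12392 other genes, 17 had an r above 0.95 and 17 an r below -0.95. Of the listed genes Akt2 was at 0.90, Pld3 at 0.75, Sertad3 at 0.69 and Blvrb at 0.67. Sertad1 was at -0.237, Sptbn4 at -0.483, Ltbp4 at -0.525, Ppp1r14a at -0.68 and Zfp60 at -0.77, all over the same 6 pools.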

How the data were processed

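Total RNA of 6 pools was measured on Affymetrix MOE430A arrays, per the labels. The values deposited by the authors are linear ratios to a reference of each probe set, a reading taken from the values: the 22690 rows have 3 decimals, and most have a median of 1 over the pools. The submitters' processing notes name RMA and MAS5 and no version or role; array scaling is unknown here.

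After 64 control probe sets were left out, log2 ratios of 22626 were fitted by genotype alone (R 4.3.3, limma 3.58.1, lmFit with eBayes and neither trend nor pseudocount). Tests were two-sided, at a Benjamini-Hochberg adjusted p under 0.05 unless stated. The same fit was run on 12393 genes, each the mean of its probe sets naming 1 gene (20380 probe sets named 1 gene, 691 several and 1555 none). Gene identifiers of 20351 probe sets matched the RefSeq table (GRCm38.p6), which gave names and gene order. The code of the fit was run on simulated data with independent noise between pools. Such data lack the shared deviations and the sex mix of the real pools, so that run does not vouch for small differences here. An exact permutation test of 3 against 3 pools cannot go below p = 0.1. The series design calls the pools biological replicates.

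The genes, lists and alternatives were chosen with earlier results of these data known. Genes named are the 10, Dll3, the 4 neighbours per direction and 2 genes per list of smallest p, close paralogues, the 5 most like Hnrnpl, sex-linked genes and markers; Fbl, Cyp2f2 and the measured genes flanking Hnrnpl and Ppp1r14a were added after values were seen. Heart, presomitic and neural markers were listed as well, and 5 of 8, 0 of 4 and 5 of 8 measured genes were higher in mutant pools, as were 6427 of all 12393 genes. Among these markers only the heart gene Tnnt2, at 0.29 (SE 0.0999), had an unadjusted limma p under 0.05 (adjusted p = 0.9997). Its groups did not overlap. Same-numbered pools did not all deviate together (correlations over genes 0.362, -0.0380 and 0.398), so pools were not paired. Pools of unlike number had correlations from -0.445 to 0.23, so the pools numbered 1 and those numbered 3 did share deviations. Figures were drawn with matplotlib 3.10.9.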

Additional observations from a re-analysis of the deposited data

How the results depend on the processing

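Probe sets past the adjusted limma threshold numbered 0 (595 by unadjusted p under 0.05), 1 with array weights (Uncx), 1 with the replicate block (Uncx) and 0 to 1 with each pool left out (Xist, without wild-type replicate 1). The count of neighbours within 50 coding genes at an unadjusted p under 0.05, which was 0 of 48, was 6 with array weights, 5 with the replicate block (10.4%, against 4.98% of all genes in that fit), 1 with median centring, 1 with quantile normalization, 1 with the probe set of largest variance for each gene and 2 of 111 within 100 coding genes. It ran from 0 to 3 with each pool left out (3 if that was mutant replicate 3, 6.25% against 2.31% of all genes in that fit; 2 if mutant replicate 1, 4.17% against 5.10%, or wild-type replicate 3, 4.17% against 5.51%; 1 if wild-type replicate 1, 2.08% against 2.78%; and 0 for the pools numbered 2). The log2 difference of Hnrnpl was 0.34 with the sex score as a covariate and 0.75 to 1.01 with each pool left out, positive in all 15 alternatives. Ppp1r14a and Ltbp4 stayed negative and Blvrb positive in all 15, at -0.60 to -0.31, -0.19 to -0.09 and 0.16 to 0.30. Each of these genes has 1 probe set, so several of the 15 could not change its difference. They were the replicate block, a variance trend over the row mean, the probe set and row filters and the probe set of largest variance. An unchanged sign there is no support. The replicate block does change the SE, from 0.144 to 0.0839 for Ppp1r14a. With it 1072 probe sets had an unadjusted limma p under 0.05. The cause of the shifts between settings was not tested. Leaving out a pool also leaves fewer samples. Depth limits cannot be given, since ratios hold no signal over background.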
